A study of Homo sapiens with 12 samples.

Results

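The BCL2 family genes described here are 10 genes whose products decide whether the outer mitochondrial membrane is opened during apoptosis: BCL2L1, MCL1, BAX, BAK1, BID, BAD, BMF, BBC3, PMAIP1 and BCL2L11. They were chosen by gene symbol from the 22564 genes of the table analysed. The rule used no measured difference, but earlier results of these data were known when it was set. Each symbol had a single row, so taking the row with the highest mean for a symbol changed nothing. RNA came from A549, an established human lung adenocarcinoma line, in which YTHDC1, the nuclear reader of N6-methyladenosine (m6A) on RNA, had been depleted by small interfering RNA (siYTHDC1) or a scrambled RNA had been transfected as control (siSCR). There were 6 libraries per group, 12 in all, from cells given 40 nM of siRNA for 48 to 72 h, and both groups share the line and the transfection. The labels name no drug treatment and do not tie the libraries to separate cultures.

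Proteins of this family share short BCL2 homology (BH) regions and fall into 3 functional classes. The anti-apoptotic proteins, here BCL-XL from BCL2L1 and MCL1, hold the others in check. The effectors BAX and BAK, encoded by BAX and BAK1, form pores that release cytochrome c from mitochondria. The BH3-only proteins sense stress and either activate the effectors or occupy the anti-apoptotic proteins, and here are represented by 6 genes: BID, BAD, BMF, BBC3 (PUMA), PMAIP1 (NOXA) and BCL2L11 (BIM). BBC3, PMAIP1 and BAX are well known targets of p53, a tumour suppressor whose response the study set out to examine.

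The measurement used is the authors' mean normalized count, 1 value per gene taken over all 12 libraries of both groups together. It carries no error, no depth per library and no value per group, so the levels below are descriptions with no test, and siYTHDC1 and siSCR are not compared. For the same reason the order of neighbouring genes could not be set against a spread between libraries. Genes with a similar pattern over libraries could not be examined either. The depletion of YTHDC1 was not examined, since the authors' own comparison of the groups was not used. YTHDC1 itself had an authors' mean normalized count of 232. Markers of cell types were read as a description, and they do not establish the identity of the line. The epithelial keratins KRT18 and KRT8 stood at 4858 and 4011 per kb of merged exons, above the 99th percentile of all genes. KRT19 stood at 288, CDH1 at 166 and EPCAM at 24.0 per kb, the last at percentile 44.3. Of 5 lung lineage markers, NAPSA alone had a row, at 4.84 per kb, and of 11 markers of blood, endothelial and fibroblast cells, 4 had one, CDH5, COL1A1, COL3A1 and PDGFRB, between 0.299 and 21.5 per kb.

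All 10 members were measured, over a wide range. Counts grow with gene length, so levels are compared as the authors' mean normalized count per kb of merged exons, that is, per 1000 bases of the gene covered by any annotated exon. On this scale the members lay between 4.86 for BMF and 695 for BCL2L1, with a median of 102 per kb. The median was 32.2 per kb over the 21798 genes that had a length and 58.6 per kb over the 14100 protein-coding ones. Above the median gene lay 8 members, and the other 2, BBC3 and BMF, lay below it, BBC3 only just, at percentile 47.5.

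**Figure D1:**
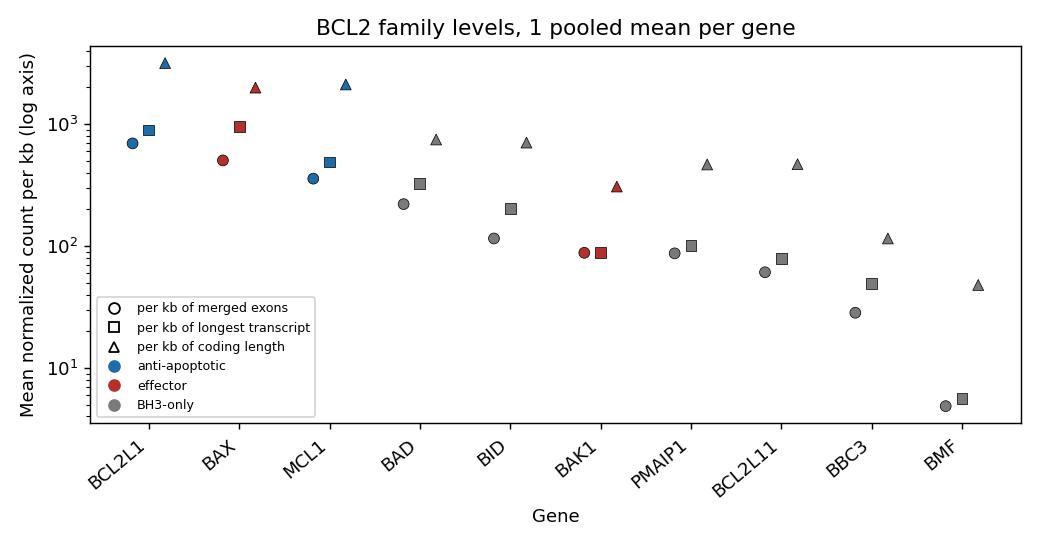
Authors' mean normalized count per kb (y axis, log scale) for each of the 10 genes (x axis), divided by the length of merged exons (circles), of the longest transcript (squares) or of the longest coding sequence (triangles), with anti-apoptotic genes in blue, effectors in red and BH3-only genes in grey. BCL2L1, BAX and MCL1 stand highest and BMF lowest under each length, and each symbol is 1 pooled value with no error.

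The anti-apoptotic genes were among the most abundant members. BCL2L1 (ENSG00000171552.8, chromosome 20, 30252255 to 30311792, minus strand, GRCh37) had an authors' mean normalized count of 2915, or 695 per kb of merged exons, at the 98.1th percentile of genes with a length. MCL1 (ENSG00000143384.8, chromosome 1, 150533371 to 150552214, minus strand), a short-lived guardian that binds BAK and BIM, had an authors' mean of 2221, or 357 per kb, at the 94.8th percentile. BCL2L1 thus stood 1.95 times above MCL1 per kb of merged exons, and was also the higher of the pair on both other lengths. BCL2L1 and MCL1 are both spliced into a long anti-apoptotic and a short pro-apoptotic form, and a gene total does not separate these. The annotation holds 13 protein-coding transcripts of BCL2L1 and 5 of MCL1.

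The effectors differed from each other. BAX (ENSG00000087088.15, chromosome 19, 49458072 to 49465055, plus strand) had an authors' mean normalized count of 1303, or 504 per kb of merged exons, at the 96.8th percentile. BAK1 (ENSG00000030110.8, chromosome 6, 33540324 to 33548070, minus strand) had an authors' mean of 195, or 88.0 per kb, at the 71.9th percentile. BAX was therefore 5.72 times as abundant as BAK1 per kb of merged exons, and the ratio was 10.9 per kb of the longest transcript and 6.48 per kb of coding length. A processed pseudogene of BAK1, BAK1P1, had a row of its own with an authors' mean of 13.3. How reads from stretches common to both were counted, or whether they were left out, is not known.

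The BH3-only genes spanned most of the range. BAD (ENSG00000002330.9, chromosome 11, 64037302 to 64052176, minus strand), whose protein is held back by 14-3-3 proteins when phosphorylated, was the highest of them with an authors' mean normalized count of 377, or 221 per kb of merged exons. BID (ENSG00000015475.14, chromosome 22, 18216904 to 18257536, minus strand), which caspase-8 cleaves and which links death receptors to mitochondria, followed with an authors' mean of 510, or 115 per kb. BAD was 1.91 times above BID per kb of merged exons but 1.06 times per kb of coding length, so the distance between them rests on the length used.

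PMAIP1 (ENSG00000141682.11, chromosome 18, 57567228 to 57571537, plus strand), whose product NOXA binds mainly MCL1, had an authors' mean normalized count of 190, or 87.1 per kb of merged exons. This was nearly the level of BAK1, and MCL1 was 4.10 times higher per kb. BCL2L11 (ENSG00000153094.17, chromosome 2, 111876955 to 111926021, plus strand), the gene of BIM, had a larger authors' mean of 411 but a lower level of 60.9 per kb, because its merged exons span 6742 bases against 2186 for PMAIP1. On coding length the levels of both nearly coincided, at 469 for BCL2L11 and 467 for PMAIP1. This closeness rests on the longest annotated coding sequence of PMAIP1, 408 bases. Its longest transcript holds a coding part of 162 bases, on which the level of PMAIP1 would be higher. For BCL2L11 both are 876 bases.

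Those 2 members below the median gene were also BH3-only. BBC3 (ENSG00000105327.11, chromosome 19, 47724079 to 47736023, minus strand), the gene of PUMA, had an authors' mean normalized count of 90.3, or 28.4 per kb of merged exons, at the 47.5th percentile. BMF (ENSG00000104081.9, chromosome 15, 40380091 to 40401093, minus strand), whose protein is tethered to myosin V motors through a dynein light chain, had an authors' mean of 26.5, or 4.86 per kb, at the 20.4th percentile. BCL2L1 was 143 times and BAD 45.4 times as abundant as BMF per kb of merged exons. These ratios were 159 and 57.7 per kb of the longest transcript, and 66.0 and 15.6 per kb of coding length, so their size depends on the length. BAX and BBC3 lie 1722 kb apart on the same chromosome, and BAX was the second and BBC3 the ninth member by level.

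**Figure D2:**
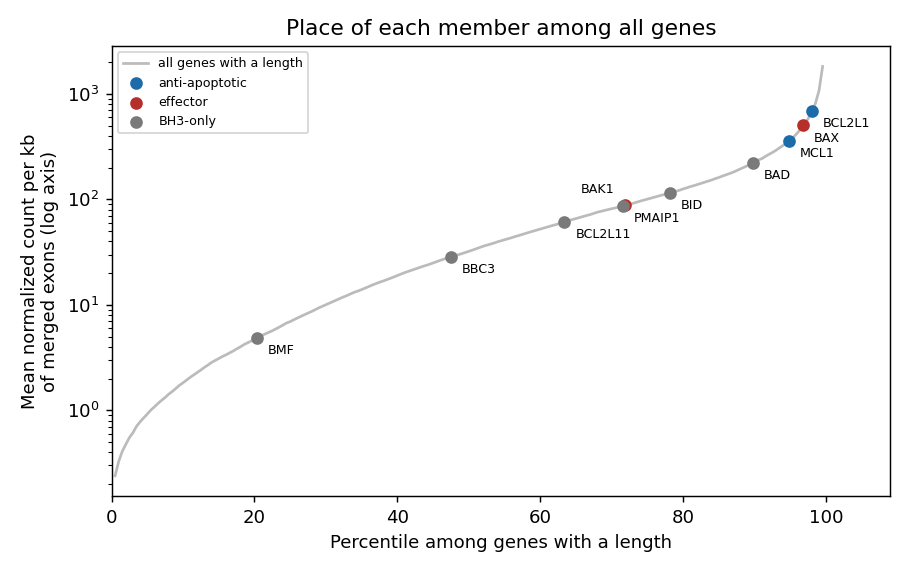
Authors' mean normalized count per kb of merged exons (y axis, log scale) against the percentile among the 21798 genes with a length (x axis), with the grey line for all genes and a labelled point for each member (anti-apoptotic blue, effector red, BH3-only grey). BCL2L1, BAX and MCL1 lie above the 94th percentile, BAK1 and PMAIP1 overlap near the 72nd, and BMF lies near the 20th.

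Summed by class, the anti-apoptotic genes held the largest part of the family's level. Of the summed level per kb of merged exons of the 10 genes, 48.7% came from the 2 anti-apoptotic genes, 27.4% from the effectors and 23.9% from the BH3-only genes. Per kb of the longest transcript the shares were 43.3%, 32.8% and 23.9%. Per kb of coding length they were 52.1%, 22.7% and 25.2%, so the order of effectors and BH3-only genes depended on the length. Coding length here is the longest annotated coding sequence of each gene, and shorter ones would change these shares.

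Several members share exons with a neighbour on the opposite strand. The libraries were made with a stranded kit, but the sources used here do not state that counting used strand. For these genes it is therefore not known how reads from the shared stretches were counted, or whether they were left out. The overlaps are those of GENCODE release 44, while counting used release 19. The overlap was largest for BCL2L1, where 41.3% of the merged exons are also exons of the antisense RNA ABALON. ABALON had no row, and neither did BMF-AS1 and GGNBP1 named below, so whether these 3 were counted at all is not known. For BAD it was 23.7%, shared with GPR137, a membrane protein gene whose own authors' mean was 420. BCL2L11 shared 10.8% with MIR4435-2HG (authors' mean 586), BMF shared 8.46% with BMF-AS1, BAK1 4.11% with GGNBP1, BBC3 2.51% with MIR3191 and MCL1 0.691% with ADAMTSL4. On its own strand MCL1 shared 5.27% of its exons with ADAMTSL4-AS1. BAX, BID and PMAIP1 had no exon in common with another annotated gene. The part of these overlaps in the levels was not tested.

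The other genes of the family lay mostly between these members. Of 13 further BCL2 family genes 11 had a row, with a median of 65.6 per kb of merged exons and a range from 0.983 to 155. BNIP3L and BNIP3, which recruit the autophagy machinery to mitochondria, and BCL2L12 were the highest at 155, 133 and 127 per kb. The lowest were HRK at 0.983, BCL2 itself at 3.91 and BCL2L15 at 3.98 per kb. Among all 21 family genes the first 4 by level were BCL2L1, BAX, MCL1 and BAD, and BMF was the 18th. Per kb of the longest transcript the first 4 were the same genes with BAX ahead of BCL2L1, and BMF at 5.64 was the 20th, below BCL2 at 6.61 and BCL2L15 at 6.20. Among the anti-apoptotic genes, BCL2L2 (BCL-W) stood at 100.4, BCL2A1 at 49.8 and BCL2 at 3.91 per kb, all below MCL1 and BCL2L1. BCL2L10 and BCL2L14 had no row.

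The machinery around the family was compared on the same scale. Genes of mitochondrial release and the apoptosome had a median of 138 per kb of merged exons over 10 genes. The channels VDAC1, VDAC2 and VDAC3 of the outer membrane led them at 1281, 560 and 502 per kb, and AIFM1 (62.5), the initiator caspase gene CASP9 (25.2) and DIABLO (16.6), whose product relieves inhibition of caspases, were lowest. The place of AIFM1 depends on the length: per kb of the longest transcript it stood at 159, the fifth of these 10 genes, while CASP9 and DIABLO remained the lowest. Caspases downstream of release and the death receptor side had a median of 88.8 per kb over 9 genes. In that class TNFRSF10B, FADD and TNFRSF10A stood highest at 562, 288 and 276 per kb, and CASP6, FAS and CASP10 lowest at 69.6, 62.7 and 14.4 per kb.

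Inhibitors of apoptosis, some of which block caspases or mark them for decay, had a median of 182 per kb of merged exons over 6 genes. BIRC5 (survivin) at 434, BIRC6 at 282 and BIRC3 at 185 per kb were the highest, and BIRC2 at 179, XIAP at 167 and BIRC7 at 53.9 per kb the lowest. Proteins that hold or turn over family members had a median of 432 per kb over 8 genes. The 14-3-3 genes YWHAE and YWHAZ, whose products bind BAD, stood at 2376 and 1568 per kb. DYNLL1, a dynein light chain known to bind BIM, stood at 649, and DYNLL2, the light chain that binds BMF, at 142 per kb, and the ubiquitin ligase genes BTRC and FBXW7 were lowest at 78.1 and 33.0 per kb.

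**Figure D3:**
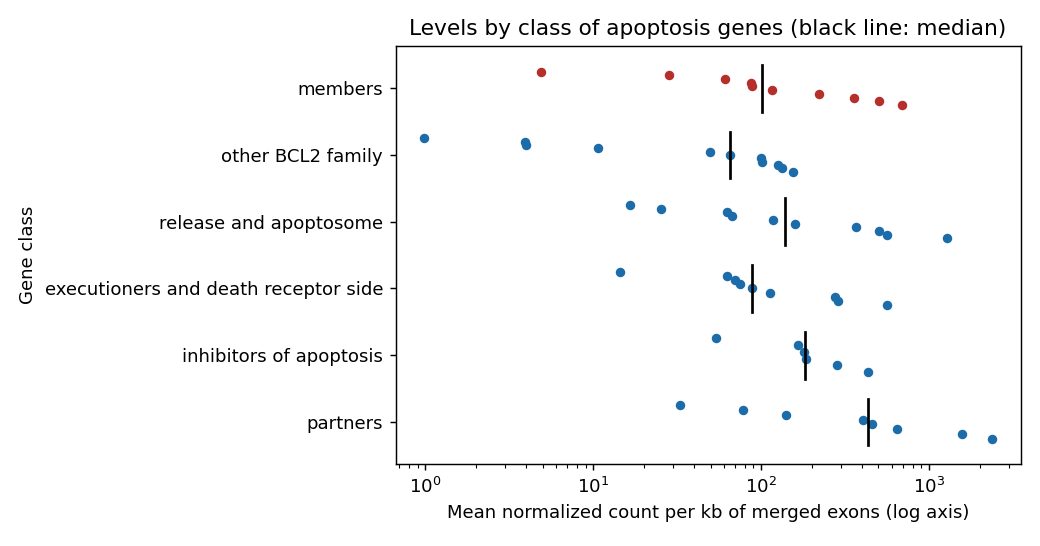
Authors' mean normalized count per kb of merged exons (x axis, log scale) for the 10 members (red) and for 5 classes of apoptosis genes (blue), 1 point per gene with the class median as a black line. The medians run from 65.6 per kb for the other BCL2 family genes to 432 per kb for the partners, and the members' median of 102 lies between them.

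YTHDC1 reads m6A, which is placed mostly within a short consensus, of which GGACT is a common form in the DNA alphabet. This word was counted on the sense strand of the longest protein-coding transcript of each gene, as a description of the sequence and not of methylation. All 10 members held it, as did 92.5% of 14100 protein-coding genes. Density was 1.82 words per kb of transcript in the median member, against 0.93 in the median protein-coding gene (quartiles 0.58 and 1.38). Of the 51 words in the 10 transcripts, 37 were in 3' UTRs, 11 in coding sequence and 2 in 5' UTRs, and 1 crossed an edge.

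BBC3 had the densest transcript, with 7 words in 1846 bases, or 3.79 per kb, at the 99.6th percentile of protein-coding genes. BAK1 (2.26 per kb), BID (2.00) and BMF (1.92) also lay above the 90th percentile, and PMAIP1 was the lowest at 1.05 per kb, at the 57.8th percentile. Base composition differed among these transcripts as well. The GC content was 69.7% for BBC3 and 36.7% for PMAIP1, with a median of 56.5% over the members and 48.7% over protein-coding genes. MCL1, at a GC content of 45.1%, held 1.77 words per kb, at the 87.6th percentile. The part of GC content in the density was not tested.

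In 6 members the word lay in coding sequence with its flanks in a single exon. The 8 stretches below show these places, with 10 bases on each side and the word in capitals, 5′ to 3′ on the strand of the gene. They were read from the GENCODE transcripts and equalled the GRCh37 genome at the coordinates given.
BCL2L1, chr20:30309907-30309931, minus strand: gaagagaacaGGACTgaggccccag
BCL2L1, chr20:30309889-30309913, minus strand: gccccagaagGGACTgaatcggaga
MCL1, chr1:150551962-150551986, minus strand: cgcggtaatcGGACTcaacctctac
MCL1, chr1:150550733-150550757, minus strand: ggacaaaacgGGACTggctagttaa
BAX, chr19:49464110-49464134, plus strand: gctggacattGGACTtcctccggga
BBC3, chr19:47725098-47725122, minus strand: tctcatcatgGGACTcctgccctta
BCL2L11, chr2:111880343-111880367, plus strand: gctgcgccggGGACTctgaacccga
BMF, chr15:40398154-40398178, minus strand: agagcctactGGACTgccccctcag

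The pair in BCL2L1 lies within 1 exon and the windows overlap, while those of MCL1 lie in different parts of its coding sequence. BAD and BID also held the word in coding sequence, 2 times and 1 time, but without both flanks in coding sequence of 1 exon. BAK1 and PMAIP1 had no word in the coding part of the transcript used, where BAK1 held 5 words in its 3' UTR and PMAIP1 held 1 in each UTR. The coding parts of the BAK1 and PMAIP1 transcripts span 459 and 162 bases, against 633 and 408 in the longest annotated coding sequences of these genes. The places of words therefore hold for the transcripts used and not for every form of a gene.

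**Figure D4:**
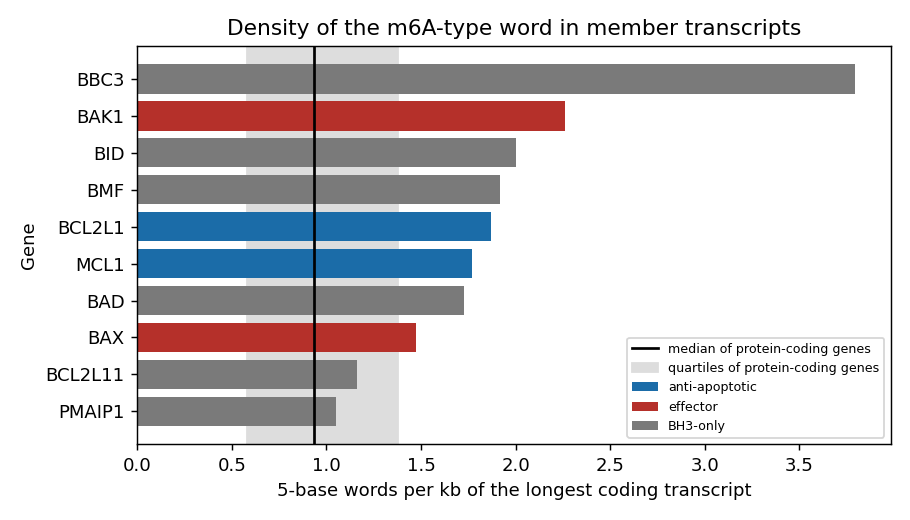
Number of GGACT words per kb of the longest protein-coding transcript (x axis) for each member (y axis; anti-apoptotic blue, effector red, BH3-only grey), with the median (black line) and quartiles (grey band) of protein-coding genes. BBC3 extends furthest at 3.79 per kb, and BCL2L11 and PMAIP1 lie within the band.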

How the data were processed

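Total RNA of A549 cells was sequenced in 6 siYTHDC1 and 6 siSCR libraries, grouped by their titles. Stranded TruSeq libraries were made after DNase treatment and removal of ribosomal RNA, per the labels. The authors used STAR for alignment to hg19, HTSeq for gene counts on GENCODE release 19, and a DESeq2 model that also held the sequencing batch. The deposited table has 22564 rows, without values for single libraries. The signal column, the mean normalized count over all libraries, was deposited by the authors and is the single column of values used. The other columns hold the authors' own comparison of the groups (fold change, its standard error, statistic, p-value and adjusted p-value) and were not used, so no group comparison or test was made. The count test planned for columns per library was not run.

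Gene IDs without version numbers were matched to GENCODE release 44 mapped to GRCh37, the same build as hg19, for 21798 genes (96.6%). Lengths, positions and overlaps are those of this release, not of the one counted on. Percentiles are the share of these genes at or below a level. Alternatives were the length of the longest transcript, coding length, the sum over rows of a symbol, and other sets of genes to rank among. Coding length is that of the longest annotated coding sequence of a gene, which need not belong to its longest transcript. Members and gene lists were chosen with earlier results of these data known. Named were all members, the target, the markers and up to 3 highest and 3 lowest genes per class. A gene of these lists is not reported here and was left out of its class. Word counts and percentiles were tested on simulated data. Python 3.11.15, numpy 2.4.6, pandas 2.3.3 and matplotlib 3.10.9 were used.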

Additional observations from a re-analysis of the deposited data

How the results depend on the processing

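The members' median level of 102 per kb of merged exons moved to 152 per kb of the longest transcript and 587 per kb of coding length, since shorter lengths raise every value that they rescale. The first place went from BCL2L1 to BAX per kb of the longest transcript (895 and 959), MCL1 passed BAX on coding length (2115 and 1992), and BMF was the lowest under all 3 lengths. Summing over rows of a symbol could not change the members' levels, since each member had a single row. The number of members above the median gene was 8 among all genes, 8 among protein-coding genes and 8 among genes whose mean was 10 or more. In the last 2 sets BCL2L11 was only just above it, at percentiles 51.0 and 50.5. Without scaling by length the number was 9, where BBC3 was at the 51.9th percentile. Percentiles were not recomputed per kb of the longest transcript or of coding length. Merged exons of release 44 exceed the longest transcript by 90.5% for BAX and by 0% for BAK1, so levels per kb carry the annotation's uneven detail. The planned search for the BH3 core in reference proteins was not run. No paired analysis was possible because the values used are 1 mean per gene over all libraries, and leaving out a library could not be done for the same reason. Depth per library is unknown.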
